A study of Danio rerio with 15 samples.

Results

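The genes described here were those whose level differed most between replicate libraries of depleted zebrafish testis. Their depleted mean had to lie within about 2-fold of the control mean, and their recovering mean had no lower limit. A gene was eligible when its mean was under 500 CPM (counts per 1000000 counts in the library's file) in all 3 groups and at least 10 CPM in the depleted group. The depleted mean plus 0.5 also had to lie between 0.5 and 2 times the control mean plus 0.5, and the recovering mean could not exceed both other means. Of 33752 genes listed, 4017 met these conditions, and the 200 with the largest ratio of standard deviation to mean (SD/mean) over the depleted libraries were taken. The measured values thus chose the genes: the spread among depleted libraries and the 3 group means are given as a description, with no test. The spread within the control and within the recovering libraries was not used in the choice.

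RNA sequencing had been carried out on testis tissue of adult wild-type zebrafish in control, depleted and recovering groups. The design names 5 biological replicates a group, and the tables used held 4 control libraries (1, 3, 4 and 5), 5 depleted and 5 recovering ones; control 2 was not analysed here. How the testes were depleted, how long they recovered, and whether a library came from 1 fish or a pool are not given in the labels. Libraries were made from total RNA with a TruSeq kit, and totals ran from 8123444 to 48646941 counts a library (median 9307359).

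A fish testis holds germ cells in cysts enclosed by Sertoli cells, with Leydig cells, vessels and immune cells between the tubules. Loss of germ cells leaves the somatic cells to make up more of the RNA, and in whole tissue fewer cells of a type and less RNA per cell cannot be told apart. Genes for body functions outside the gonad, such as epithelial transport, plasma proteins, the circadian clock and interferon defence, can be read from such tissue as well, either from testis cells or from tissue attached to it.

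The labels do not name the cells depleted, but germ cell marker sums were below the controls in every depleted library, unevenly so. The summed level of 11 spermatogonial markers was 5552 to 5860 CPM in controls, and 2540, 2222, 70.14, 308 and 23.4 CPM in depleted 1 to 5. The sum of 12 meiotic markers was 6649 to 7673 CPM in controls, and 1605, 2387, 87.8, 97.0 and 25.8 CPM in depleted 1 to 5. The sum of 12 spermatid and flagellar markers was 2177 to 2375 CPM in controls, and 241, 666, 91.3, 28.7 and 41.6 CPM in depleted 1 to 5. All 3 sums were highest in depleted 1 and 2 among the depleted libraries; the first 2 were lowest in depleted 5 and the spermatid sum in depleted 4. The level conditions left 0 genes of these lists or of the Leydig cell list eligible, and 2 of the Sertoli cell list, neither among the 200.

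Marker lists of other organs were uneven between libraries. The liver list (24 genes) summed to 6655 CPM in depleted 1 and 20205 CPM in depleted 4, against 229 to 628 CPM in the other depleted libraries, 177 to 497 CPM in controls and 242 to 1676 CPM in recovering libraries. The exocrine pancreas list (12 genes) summed to 14606 CPM in depleted 2, 2911 CPM in recovering 2 and 7963 CPM in recovering 5, against at most 422 CPM elsewhere. The kidney tubule list (11 genes) summed to 1001 to 2090 CPM in depleted libraries, highest in depleted 5, against 533 to 683 CPM in controls and 569 to 988 CPM in recovering libraries. These sums include CUBN and CDH17, which were themselves chosen for their spread among depleted libraries. Without them the list summed to 1720, 1062, 1484, 988 and 1891 CPM in depleted 1 to 5. It then summed to 507 to 619 CPM in controls and 555 to 928 CPM in recovering libraries. The skeletal muscle list (19 genes) summed to 64.4, 82.5, 69.4 and 35.4 CPM in depleted 1 to 4 and 601 CPM in depleted 5. It summed to 203 to 246 CPM in controls and 144 to 294 CPM in recovering libraries. The gut, adipose tissue and nervous system lists were highest in depleted 4, at 762, 1191 and 225 CPM. Values of the liver, pancreas and kidney lists are set beside genes below. The part of any of these lists in those results was not tested.

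**Figure D1:**
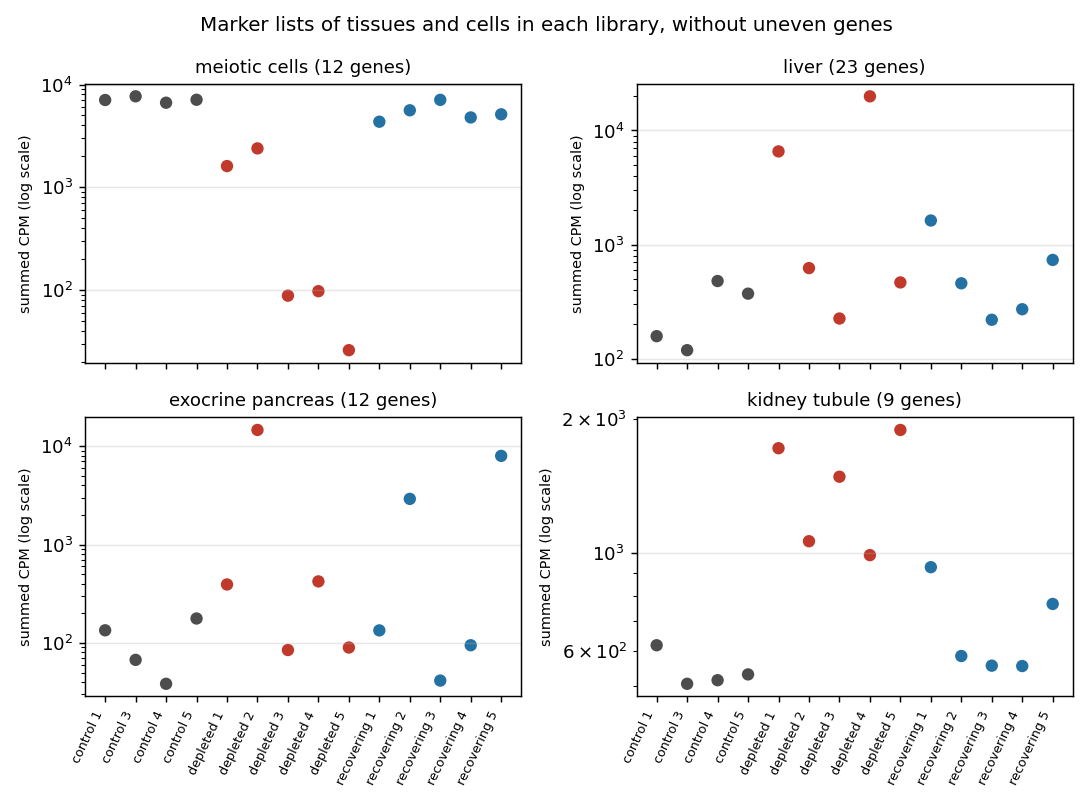
Summed CPM (log axis) of 4 marker lists in each library, leaving out any gene among the 200; grey points are control, red depleted and blue recovering libraries. The meiotic sum was 25.8 to 2387 CPM in depleted libraries, the liver sum was highest in depleted 4 and next in depleted 1, and the pancreas sum was highest in depleted 2 and next in recovering 5.

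Among the 200 genes the SD/mean over depleted libraries ran from 0.547 to 1.82, with a median of 0.689, beside 0.238 for the other 3817 eligible genes. At the threshold, rusc1 (0.547) and GRAMD1B (0.547) were inside, and GLT8D2 (0.544) and PPP1R16A (0.543) outside. Their mean levels were modest, with medians of 19.1, 19.4 and 15.6 CPM in control, depleted and recovering libraries. Counting error alone would give a median SD/mean of 0.0748 in the depleted group. Of the 200, 170 carried a gene symbol in the reference table and 30 did not.

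The genes were not high in the same library. The highest depleted value lay in depleted 4 for 63 genes, in depleted 5 for 54, in depleted 3 for 39, in depleted 1 for 33 and in depleted 2 for 11. Among all 4017 eligible genes the order was different, with 1399 highest in depleted 3, 1246 in depleted 1, 536 in depleted 2, 425 in depleted 4 and 411 in depleted 5. The lowest value lay in depleted 5 for 79 of the 200 genes (39.5%), beside 1310 of the 4017 eligible genes (32.6%). It lay in depleted 2 for 47 of the 200 (23.5%), beside 1607 of the eligible genes (40.0%). For 140 of the 200, a depleted library lay above every control and another lay below every control, which was so for 1101 of the 4017 eligible genes.

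**Figure D2:**
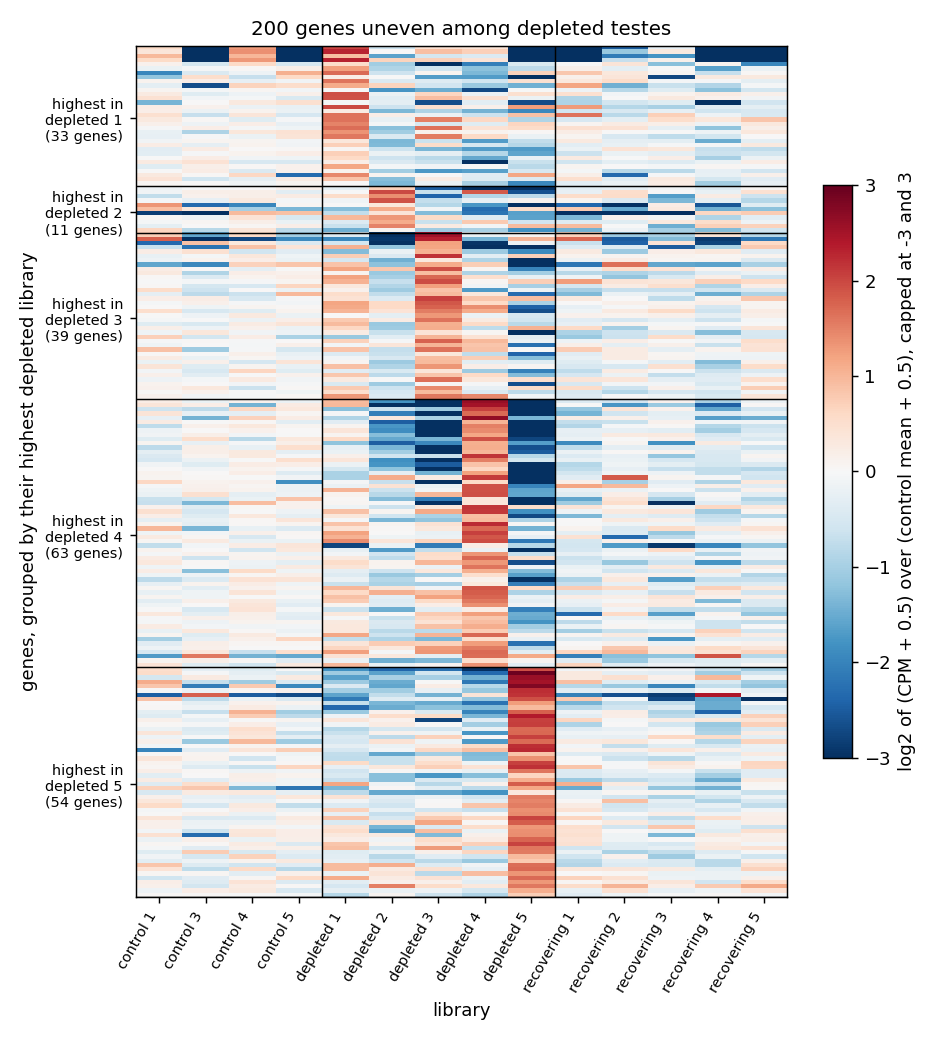
The 200 genes (rows, grouped by the depleted library in which each was highest) in the 14 libraries (columns), coloured by log2 of (CPM + 0.5) over (control mean + 0.5) and capped at -3 and 3. Each block is red in a different depleted library, and the 63 genes highest in depleted 4 include many that are deep blue in depleted 3 and depleted 5.

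How far the highest library stood from the others varied between the blocks. The 54 genes highest in depleted 5 stood there at a median 3.22 times the control mean, and 40 of them exceeded 2 times the next depleted library. The 63 genes highest in depleted 4 stood there at a median 2.60 times the control mean, and at 0.336 times in depleted 5, where 40 of them were lowest of the 5. The corresponding medians were 2.33 times in depleted 3, 2.24 times in depleted 1 and 2.16 times in depleted 2, each for the genes highest there. The highest library exceeded 2 times the next for 26 of 63 genes in the depleted 4 block, 14 of 33 in the depleted 1 block, 8 of 39 in the depleted 3 block and 4 of 11 in the depleted 2 block. By Dixon's criterion at 95%, 1 depleted library stood apart high for 50 of the 200 genes (25%), beside 147 of all 4017 eligible genes (3.66%). The 200 were chosen for spread among these same libraries, so nothing is read from that difference.

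The choice itself kept the depleted mean within a 2-fold band of the control mean on the scale of total counts. By edgeR's quasi-likelihood test with TMM scaling, 14106 of 21277 genes tested differed between depleted and control testes at an adjusted p under 0.05 (66.3%), 34.2% higher and 32.1% lower in depleted testes. Of the 200, 47 were called, all higher in depleted testes, and the median of their log2 fold changes was 0.80 beside 0.03 for all genes. With scaling by total counts alone, 12 were called, 10 higher and 2 lower, beside 5565 higher and 8591 lower of all 21277 genes. The medians were then 0.38 for the 200 and -0.34 for all genes. Between recovering and depleted testes 30.5% of genes were called lower in recovering testes, and 46 of the 200. None of the 200 was called higher, beside 6098 of the 21277 genes tested. Between recovering and control testes 1 of the 200 had an unadjusted p under 0.05 by edgeR, beside 3394 of the 21277 genes tested. After adjustment 0.451% of all genes were called by edgeR and 0 of the 200, and DESeq2 also called 0 of the 200. The count over all genes in that comparison was itself unsettled: 96 by edgeR, 1353 by DESeq2, 1254 by edgeR with only these 2 groups fitted, and 0 to 556 with a library left out. It was 0 without any 1 of the controls or of recovering 1, 2 and 4, and highest without depleted 2. The group means were part of the choice. The spread among depleted libraries, by which the 200 were taken, also entered each gene's dispersion in the fit of all 3 groups. With only recovering and control libraries fitted, 3 of the 200 were called. For both reasons nothing is read from these counts.

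Among the genes highest in depleted 5, 6 with known roles in epithelial transport or adhesion are described first; they were grouped after the values were seen, and no enrichment was tested. The 4 symbol-bearing genes of this block with the largest spread were SLC5A12, CUBN, pdzk1ip1 and si:ch211-281l24.3, the last of unnamed function. SLC5A12, a sodium-coupled monocarboxylate transporter known from kidney and gut epithelium, stood at 28.8, 16.7, 15.7 and 20.1 CPM in control 1, 3, 4 and 5, at 5.42, 3.48, 3.92, 1.08 and 78.9 CPM in depleted 1 to 5, and at 19.3, 20.3, 18.8, 12.9 and 9.47 CPM in recovering 1 to 5. Depleted 5 was above every other library and the other 4 depleted libraries were below every control, so that the group mean of 18.6 ± 33.8 CPM (SD, n = 5) lay next to the control mean of 20.3 ± 5.98 CPM (SD, n = 4). Its SD/mean of 1.82 was the largest of the 200.

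CUBN, the uptake receptor cubilin, stood at 18.4, 12.2, 10.2 and 8.98 CPM in controls, at 5.66, 3.72, 8.39, 2.06 and 98.6 CPM in depleted 1 to 5, and at 15.2, 10.2, 9.67, 5.76 and 7.84 CPM in recovering 1 to 5. It had the same shape as SLC5A12: 4 depleted libraries below every control and depleted 5 far above. The values of pdzk1ip1, which encodes a membrane partner of the scaffold PDZK1, were 27.4, 7.31, 5.64 and 9.02 CPM in controls, 5.54, 4.08, 12.3, 2.38 and 71.7 CPM in depleted 1 to 5, and 23.4, 9.42, 10.9, 8.86 and 5.79 CPM in recovering 1 to 5. Here control 1 and recovering 1 also stood above the rest of their groups. CDH17, a cadherin that marks kidney tubule and gut epithelium, was at 46.4, 14.7, 22.4 and 18.95 CPM in controls, 5.54, 19.6, 21.5, 11.3 and 100 CPM in depleted 1 to 5, and 44.8, 24.8, 3.51, 8.32 and 1.98 CPM in recovering 1 to 5. It too was highest of its group in control 1 and recovering 1. The peptide transporter gene SLC15A2 stood at 8.002 to 16.1 CPM in depleted 1 to 4 and 45.5 CPM in depleted 5, and dab2, an endocytic adaptor, at 15.4 to 20.5 CPM and 58.3 CPM.

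CUBN and CDH17 were the members of the kidney tubule list among the 200. Of the 8 other genes of that list tested, 3 rose and 1 fell between depleted and control testes by edgeR's test at an adjusted p under 0.05, beside 34.2% and 32.1% of all genes tested. The tubule scaffold gene pdzk1 stood at 86.4 CPM in depleted 5, 22.1 CPM in control 1, 14.5 CPM in depleted 3, 9.01 CPM in recovering 1 and 6.13 CPM in depleted 2, and at 1.84 CPM or less in the other 9 libraries. The organic anion transporter gene slc22a7b.1 stood at 11.03 CPM in depleted 5, 10.5 CPM in control 1 and 23.8 CPM in recovering 1, and at 1.28 CPM or less elsewhere. The tubule marker aqp8b was at or near 0 throughout, with at most 0.301 CPM. LGMN and ctsla, lysosomal protease genes with wide expression, made up most of the summed list.

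DDC, the aromatic amino acid decarboxylase that makes dopamine and serotonin, had its highest depleted value in depleted 3. It stood at 107, 2.90, 4.25 and 7.71 CPM in control 1, 3, 4 and 5, at 7.63, 3.60, 156, 11.4 and 62.9 CPM in depleted 1 to 5, and at 102, 4.97, 12.1, 3.73 and 6.54 CPM in recovering 1 to 5. The 4 high libraries, control 1, depleted 3, depleted 5 and recovering 1, were the 4 with the most pdzk1. Among these 4, DDC was highest in depleted 3 and pdzk1 in depleted 5. Other genes of the kidney list differed from DDC. The gene slc22a7b.1 was high in control 1, depleted 5 and recovering 1 but low in depleted 3, and aqp8b was low in every library. The part of kidney tissue in the DDC values was not tested.

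Clock genes formed another part of the block highest in depleted 5. Of the 33 genes on the circadian clock and light list, 12 were eligible and 5 were among the 200, and all 5 were highest in depleted 5. PER1, a period repressor of the clock loop, stood at 64.8, 52.5, 70.4 and 69.5 CPM in controls, at 38.8, 24.4, 22.3, 13.5 and 155 CPM in depleted 1 to 5, and at 24.2, 39.2, 38.3, 22.4 and 61.4 CPM in recovering 1 to 5. The controls were even, 4 depleted libraries lay below all of them, and depleted 5 lay above. Another gene with the symbol PER1, and PER2, were on the list but not among the 200.

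NR1D2, a Rev-erb nuclear receptor that represses clock genes, was at 162, 167, 159 and 145 CPM in controls, 95.2, 54.5, 77.3, 62.7 and 289 CPM in depleted 1 to 5, and 120, 116, 144, 118 and 190 CPM in recovering 1 to 5. PER3 was at 21.6, 14.04, 20.2 and 16.4 CPM in controls, 11.08, 7.33, 13.2, 12.98 and 38.8 CPM in depleted 1 to 5, and 8.08, 10.2, 11.8, 6.08 and 22.1 CPM in recovering 1 to 5. Both again had 4 depleted libraries below every control, and both had recovering 5 as the highest recovering library, as did PER1. The values of ciartb, one of the circadian-associated transcriptional repressors, were 21.4, 17.3, 20.6 and 20.7 CPM in controls, 30.0, 12.4, 29.1, 18.3 and 84.0 CPM in depleted 1 to 5, and 20.3, 19.1, 26.2, 20.4 and 31.5 CPM in recovering 1 to 5. Unlike those of the PER1 and PER3 genes given here, its depleted 1 to 4 values lay on either side of the controls. Its paralogue ciarta was at 19.9 to 36.7 CPM in depleted 1 to 4 and at 75.2 CPM in depleted 5. Among the 28 other clock and light genes tested, 15 rose and 3 fell between depleted and control testes by edgeR's test at an adjusted p under 0.05, beside 34.2% and 32.1% of all genes tested.

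**Figure D3:**
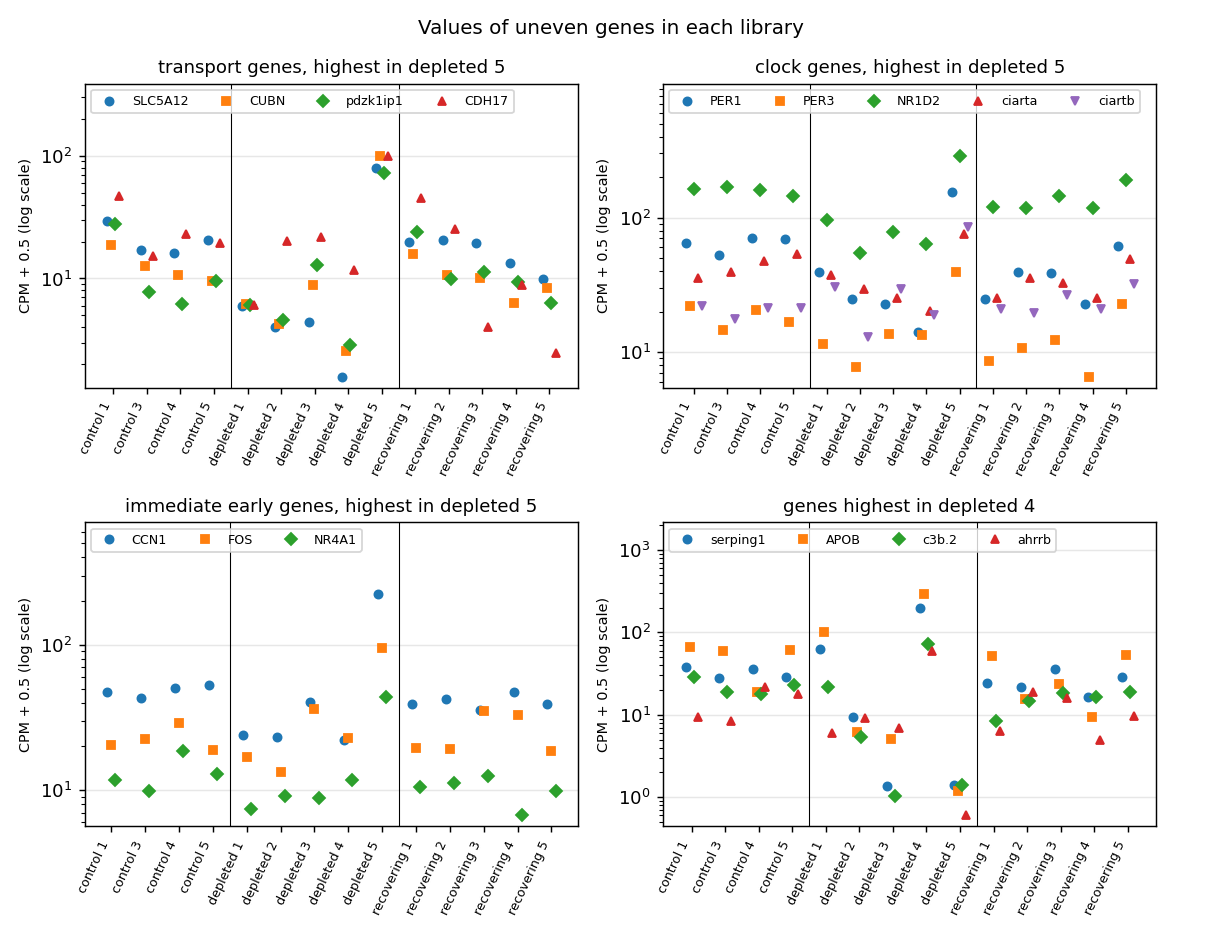
CPM + 0.5 (log axis) of 16 of the 200 genes in each library, 1 symbol a gene, with vertical lines between control, depleted and recovering libraries. The transport, clock and immediate early genes peak in depleted 5 (PER1 at 155 CPM, CCN1 at 222 CPM), and serping1, APOB, c3b.2 and ahrrb peak in depleted 4 and lie near 0 in depleted 5.

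Immediate early genes, which cells switch on within minutes of a stimulus, had 3 members of 27 listed, and 9 listed genes were eligible. CCN1, a secreted matrix protein and serum-response target, stood at 47.1, 42.5, 49.6 and 52.3 CPM in controls, at 23.3, 22.8, 40.2, 21.6 and 222 CPM in depleted 1 to 5, and at 38.3, 41.7, 35.3, 46.5 and 38.56 CPM in recovering 1 to 5. FOS, a subunit of the AP-1 transcription factor, was at 19.8, 22.05, 28.3 and 18.4 CPM in controls, 16.4, 12.7, 35.9, 22.2 and 94.0 CPM in depleted 1 to 5, and 19.05, 18.7, 34.3, 32.1 and 17.99 CPM in recovering 1 to 5. Outside depleted 5 the depleted values of CCN1 were below every control, and those of FOS overlapped the controls. NR4A1, an orphan nuclear receptor, was at 11.2, 9.399, 18.2 and 12.3 CPM in controls, 6.89, 8.65, 8.39, 11.14 and 42.9 CPM in depleted 1 to 5, and 9.93, 10.8, 12.02, 6.19 and 9.33 CPM in recovering 1 to 5. All 3 had their highest value of the 14 libraries in depleted 5. Of the 24 other listed genes tested, 17 rose and 2 fell between depleted and control testes by edgeR's test at an adjusted p under 0.05, beside 34.2% and 32.1% of all genes tested.

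Further genes of this block, named after their values were seen, are known from interferon defence. The Mx GTPase gene mxc stood at 8.77 to 12.8 CPM in depleted 1 to 4 and 31.3 CPM in depleted 5, and pkz, the Z-DNA-binding kinase of fish, at 7.26 to 20.1 CPM and 44.5 CPM. The gene uba7, for the enzyme that activates ISG15, was at 25.2 to 79.2 CPM and 124 CPM, and the neighbouring genes herc56.2 and herc56.4 on chromosome 1 of the GRCz12tu assembly were at 43.3 and 72.9 CPM in depleted 5. The gene ifi27.4 was nearly as high in depleted 2 (264 CPM) as in depleted 5 (274 CPM). Besides mxc, the interferon and antigen presentation list had PSMB8, PSMB9, psmb13a and tap2a among the 200. These went the other way, at 0 CPM in depleted 5, and are described below. Of the 28 interferon and antigen presentation genes tested that were not among the 200, 20 rose and 0 fell between depleted and control testes by edgeR's test at an adjusted p under 0.05, beside 34.2% and 32.1% of all genes tested. Counts of herc56.2 and herc56.4 are uncertain, since near-identical copies can share reads.

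In the block highest in depleted 4, the symbol-bearing genes with the largest spread were serping1, APOB, ahrrb and c3b.2. The complement inhibitor gene serping1 stood at 37.1, 27.7, 35.0 and 27.9 CPM in controls, at 61.7, 8.89, 0.871, 196 and 0.895 CPM in depleted 1 to 5, and at 24.0, 21.3, 35.0, 16.0 and 28.1 CPM in recovering 1 to 5. APOB, the apolipoprotein of large lipoprotein particles, was at 66.0, 58.4, 18.6 and 60.5 CPM in controls, 100, 5.65, 4.57, 290 and 0.696 CPM in depleted 1 to 5, and 50.6, 14.9, 23.2, 8.96 and 52.3 CPM in recovering 1 to 5. Both were above every control in depleted 1 and 4 and below every control in depleted 2, 3 and 5.

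The complement component gene c3b.2 was at 28.4, 18.2, 17.5 and 22.4 CPM in controls, 20.9, 4.80, 0.545, 70.9 and 0.895 CPM in depleted 1 to 5, and 7.85, 14.2, 17.7, 16.1 and 18.3 CPM in recovering 1 to 5. The repressor of the aryl hydrocarbon receptor, ahrrb, was at 8.78, 7.89, 21.5 and 17.4 CPM in controls, 5.54, 8.65, 6.32, 59.07 and 0.0994 CPM in depleted 1 to 5, and 5.89, 18.2, 15.3, 4.37 and 9.20 CPM in recovering 1 to 5. For ahrrb only depleted 4 was above the controls, and depleted 5 was close to 0.

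Several metabolic enzyme genes of this block, named after their values were seen, were likewise low in depleted 3 and 5. XDH, xanthine dehydrogenase, was at 20.1, 7.57, 0.327, 43.1 and 0.0994 CPM in depleted 1 to 5, against 17.7 to 21.4 CPM in controls. The lactate dehydrogenase gene ldhbb was at 42.6, 11.7, 1.31, 116 and 0.895 CPM, and DPYD, which degrades pyrimidines, at 14.5, 8.05, 0, 34.2 and 2.58 CPM. All 3 were highest in depleted 4 and lower in depleted 2, 3 and 5 than in any control. The glucose transporter gene SLC2A2 stood at 51.8 CPM in depleted 4 and 0.109 CPM in depleted 3, and TDO2, which opens the tryptophan ring, at 87.2 CPM in depleted 4 and 10.6 to 21.4 CPM in the other depleted libraries. Over all blocks, 15 of the 200 genes were under 0.5 CPM in a depleted library and at least 5 CPM in another. The count over all 4017 eligible genes was also 15 (0.373%), and the choice by spread takes up such genes.

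The 23 liver markers other than APOB summed to 19916 CPM in depleted 4 and 6554 CPM in depleted 1, the libraries highest for APOB and serping1. In the controls the order was otherwise: APOB was lowest in control 4, where those 23 markers were highest at 479 CPM. Of 21 of these genes tested, 14 rose and 1 fell between depleted and control testes by edgeR's test at an adjusted p under 0.05, beside 34.2% and 32.1% of all genes tested. Of the defining hepatocyte genes, fabp10a was at 2015 CPM in depleted 4, 331 CPM in depleted 1 and 2.94 to 9.37 CPM in the other depleted libraries, where serping1 was at 0.871 to 8.89 CPM. In controls fabp10a was at 5.45 to 60.04 CPM. Of depleted 2, 3 and 5, depleted 3 lay below the control range for fabp10a, and all 3 lay below it for serping1. These are values of 1 of the 23 markers, and the part of liver tissue in the levels of APOB and serping1 was not tested.

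The block highest in depleted 1 opened with 4 antigen-processing genes whose values divided all 14 libraries in the same way. PSMB8, a catalytic subunit of the immunoproteasome, stood at 37.4, 0.116, 61.9 and 0.0206 CPM in control 1, 3, 4 and 5, at 126, 39.6, 41.1, 33.4 and 0 CPM in depleted 1 to 5, and at 0, 15.1, 27.8, 0 and 0 CPM in recovering 1 to 5. PSMB9, another such subunit, was at 9.01, 0, 18.5 and 0 CPM in controls, 35.2, 6.97, 13.2, 11.7 and 0 CPM in depleted 1 to 5, and 0, 2.86, 8.51, 0 and 0.0681 CPM in recovering 1 to 5. Control 3, control 5, depleted 5 and recovering 1, 4 and 5 were at or near 0, and the other 8 libraries were not.

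The proteasome subunit gene psmb13a was at 16.5, 0, 27.1 and 0 CPM in controls, 45.3, 6.97, 15.0, 14.5 and 0 CPM in depleted 1 to 5, and 0.115, 1.51, 9.15, 0 and 0 CPM in recovering 1 to 5. The peptide transporter gene tap2a was at 47.9, 0, 48.6 and 0 CPM in controls, 45.4, 7.57, 16.4, 18.2 and 0 CPM in depleted 1 to 5, and 0, 5.27, 6.71, 0 and 0.0681 CPM in recovering 1 to 5. A search of all 33752 genes for values under 0.5 CPM in these 6 libraries and of at least 1 CPM in the other 8 returned 5, these 4 and psmb12, and the opposite pattern returned 0. None of the 5 had more than 1 count in any of the 6 libraries, where 3 counts would have been 0.0617 to 0.348 CPM. The low libraries came from all 3 groups: 2 control, 1 depleted and 3 recovering.

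In the GRCz12tu assembly psmb13a and tap2a lie on chromosome 19, 4 protein-coding genes apart. In zebrafish these genes belong to the core major histocompatibility region, which is known for haplotypes that carry different gene copies, and genotype at this region was not tested. Related genes outside the split were present in all libraries: TAP1 at 12.3 to 32.1 CPM, tap2t at 15.3 to 36.2 CPM and PSMB10 at 15.1 to 44.5 CPM. The low values did not extend to these paralogues.

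**Figure D4:**
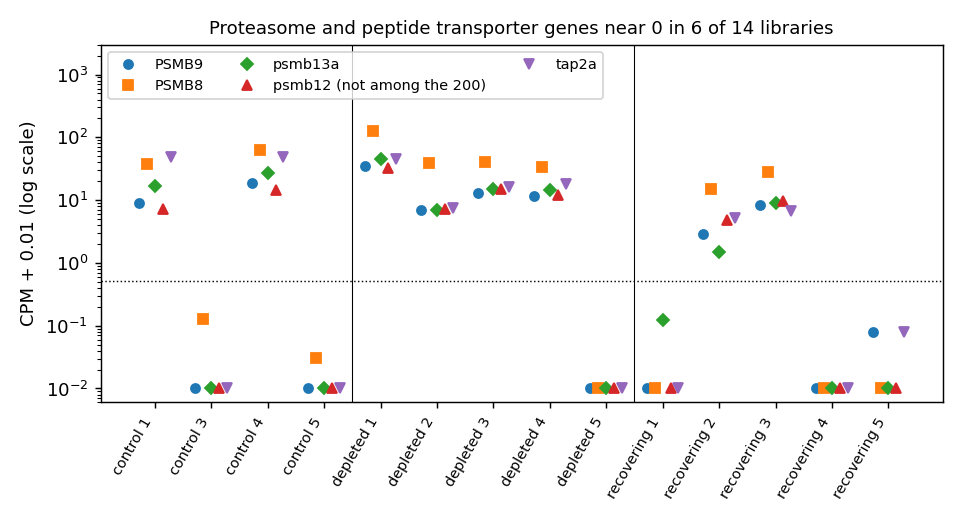
CPM + 0.01 (log axis) of PSMB9, PSMB8, psmb13a, psmb12 and tap2a in each library; psmb12 is not among the 200, the dotted line marks 0.5 CPM, and vertical lines divide the groups. All 5 genes lie below the line in control 3 and 5, depleted 5 and recovering 1, 4 and 5, and above it in the other 8 libraries.

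Other genes highest in depleted 1 included PFKFB3, MMP9 and, named after its values were seen, klf2b. PFKFB3, which raises glycolytic flux, was at 15.1 to 21.0 CPM in controls and 55.9, 13.3, 13.7, 11.7 and 25.3 CPM in depleted 1 to 5. It was the only one of the 5 eligible genes of the hypoxia and glycolysis list among the 200. The other 25 genes of that list summed to 2501, 1840, 2473, 3064 and 1878 CPM in depleted 1 to 5, highest in depleted 4, where PFKFB3 was lowest. Of these 25, 16 rose and 0 fell between depleted and control testes by edgeR's test at an adjusted p under 0.05, beside 34.2% and 32.1% of all genes tested. The transcription factor gene klf2b was at 82.0 CPM in depleted 1 and 13.2 to 49.8 CPM in depleted 2 to 5. MMP9, a gelatinase of granulocytes and tissue remodelling, was even in controls at 62.4, 56.2, 61.3 and 55.5 CPM, and stood at 58.7, 16.9, 20.5, 8.55 and 58.2 CPM in depleted 1 to 5. Its depleted libraries were either high (1 and 5) or low (2, 3 and 4), with none between 20.5 and 58.2 CPM. In recovering 1 to 5 it was at 52.5, 33.1, 45.4, 24.8 and 40.0 CPM. The other 9 genes of the neutrophil and granulocyte list summed to 633, 669, 657, 455 and 1805 CPM in depleted 1 to 5. In controls these 9 genes summed to 96.8 to 269 CPM.

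The 11 genes highest in depleted 2 were led by si:ch211-198k9.6, an unnamed locus at 157, 171, 176 and 196 CPM in controls, 142, 285, 31.3, 11.04 and 9.84 CPM in depleted 1 to 5, and 135 to 183 CPM in recovering libraries. Its depleted libraries with values near or above the controls, 1 and 2, were those with the highest germ cell marker sums. The aquaporin gene aqp12 was at 14.8 to 21.0 CPM in controls and 18.3, 75.1, 11.5, 67.1 and 2.58 CPM in depleted 1 to 5. Of its high libraries, depleted 2 had the highest pancreas sum and depleted 4 the highest liver sum. Depleted 1, with a liver sum of 6655 CPM, had aqp12 within the control range. The part of either list in the aqp12 values was not tested. The chemokine gene ccl19a.1 was at 173 CPM in depleted 2 and 27.6 to 49.3 CPM in the other depleted libraries, against 38.8 to 56.3 CPM in controls. The complement gene c7b was already uneven in controls, at 51.1, 3.60, 4.77 and 21.1 CPM, and was at 1.29 to 25.7 CPM in depleted libraries.

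Among the 39 genes highest in depleted 3, NECAB2, a neuronal calcium-binding protein gene, was at 2.85, 31.0, 20.8 and 12.2 CPM in controls, 11.3, 0.841, 39.5, 1.73 and 14.8 CPM in depleted 1 to 5, and 2.03 to 25.5 CPM in recovering libraries. The ferritin-like gene fthl30 was at 2.09 to 21.8 CPM in controls and 24.9, 4.92, 26.7, 0.757 and 0.298 CPM in depleted 1 to 5. Both were uneven in every group. CYP26A1, which degrades retinoic acid, was at 51.4 to 118 CPM in controls, at 92.8, 40.1, 176, 69.7 and 37.4 CPM in depleted 1 to 5, and at 39.6 to 106 CPM in recovering libraries.

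In the libraries whose spread had no part in the choice, the 200 genes were also more uneven than the other eligible genes. Their median SD/mean was 0.215 over control libraries, beside 0.112 for the other 3817 eligible genes, and 0.287 over recovering libraries, beside 0.163. Counting error alone would give medians of 0.0660 and 0.0501 in controls and 0.0720 and 0.0509 in recovering libraries. An SD/mean of at least 0.5 was reached by 38 of the 200 in controls (19%; 2.02% of all 4017 eligible genes) and by 40 in recovering libraries (20%; 2.22%). Of these, 22 reached it in both groups, and 144 of the 200 stayed under it in both.

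**Figure D5:**
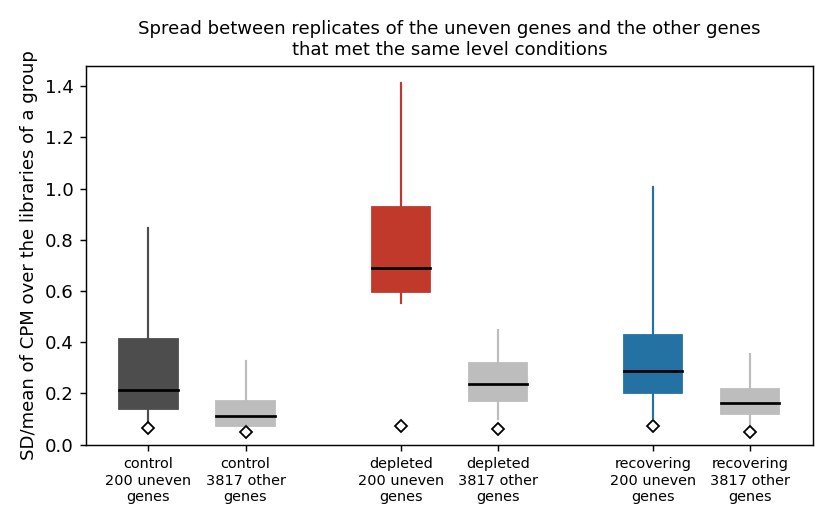
SD/mean of CPM over the libraries of each group for the 200 genes and the 3817 other eligible genes; boxes span the quartiles, black lines are medians, thin lines span the 5th to 95th percentile and diamonds mark the median that counting error alone would give. Medians of the 200 were 0.215 in control, 0.689 in depleted (the chosen quantity) and 0.287 in recovering libraries.

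The genes most uneven outside the depleted group were the prostaglandin D synthase-type genes ptgdsb.1 and ptgdsb.2, neighbours on chromosome 24 of GRCz12tu, together with DDC and psmb13a. The values of ptgdsb.1 were 3.53, 76.0, 3.38 and 2.92 CPM in control 1, 3, 4 and 5, 6.89, 12.7, 7.73, 28.3 and 97.7 CPM in depleted 1 to 5, and 4.85, 3.09, 2.56, 117 and 19.5 CPM in recovering 1 to 5. Those of ptgdsb.2 were 1.94, 22.9, 2.43 and 2.2 CPM in controls, 10.1, 9.25, 5.99, 24.6 and 16.9 CPM in depleted 1 to 5, and 1.39, 2.79, 2.88, 28.4 and 3.82 CPM in recovering 1 to 5. Both were highest in control 3 and recovering 4, and reads shared between the neighbours could add to the likeness.

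At the other end, some of the 200 were even outside the depleted group. The myo-inositol transporter gene slc5a3b was at 12.7, 12.1, 11.4, 12.4 and 11.7 CPM in recovering 1 to 5 (SD/mean 0.0432), and at 27.3, 11.4, 11, 11.8 and 6.56 CPM in depleted 1 to 5. CPEB4, a regulator of poly(A) tails, was at 11.6 to 13.6 CPM in controls and 14.2 to 16.7 CPM in recovering libraries, and at 23.6, 10.2, 29.8, 44.03 and 11.13 CPM in depleted 1 to 5. PPP2R5A, a regulatory subunit of protein phosphatase 2A, was at 8.89 to 11.4 CPM in recovering libraries and 21.1, 4.68, 22.8, 16.3 and 5.87 CPM in depleted 1 to 5.

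Whether the spread itself differed between recovering and control libraries was tested with limma on absolute deviations of log2 CPM from the group mean. Of 20867 genes, 13 were called at an adjusted p under 0.05 (0.0623%), none of them among the 200. All 13 were narrower in recovering libraries, although 68.9% of all genes tested were wider there. The lowest adjusted p of the 200 in this limma test was 0.0760, and 31 of the 200 (15.5%) had an unadjusted p under 0.05, beside 2457 (11.8%) of all genes. Their median SD of log2 CPM was 0.31 in controls and 0.43 in recovering libraries, and 114 of the 200 (57.0%) were wider in recovering libraries, beside 66.8% of the eligible genes. In data simulated for this comparison, a 4-fold or 8-fold wider spread was recovered in 0% of 100 genes after adjustment and in 63.0% and 88.0% at an unadjusted p under 0.05, so that the count of 0 does not show equal spread.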

How the data were processed

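Whole-number read counts per gene, deposited by the authors for each testis library, were used as they stood, with no unnamed rows and no unused columns (0). Per the submitters' processing notes, FastQC 0.10.1, TopHat2 2.0.5, SAMtools 0.1.18, HTSeq, DESeq and the build Zv9 were used, with roles, strand setting and annotation not given in the sources used here. CPM were computed from each file's total. Levels were tested with edgeR 4.0.16 (R 4.3.3; quasi-likelihood, TMM, filterByExpr, 3 groups in 1 fit) and spread with limma 3.58.1 (log2 CPM, prior count 2), both with Benjamini-Hochberg adjustment over all genes tested. DESeq2 1.42.0, other scalings, filters, left-out libraries and a replicate block were alternatives. The level test, checked on data simulated for depleted against control testes with 20353 genes, recovered 67.0% of 100 genes changed 4-fold and 88.0% of 100 changed 8-fold, with 12 false calls. The replicate numbers come from the sample titles.

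Symbols were matched for 21948 of 33752 gene identifiers; capitals are as in that table, do not tell which duplicated zebrafish copy is meant, and list names were also matched after removing a final copy letter. RefSeq's GRCz12tu assembly gave neighbours only. The genes, lists and tests were chosen with earlier results of these data known; 496 of 625 list entries matched, and 22 of the 200 genes were in any of the 30 lists. Named genes were the 4 most uneven per depleted library and the 3 with the largest spread in controls. They also included the 3 with the largest and the 3 with the smallest spread in recovering libraries, and up to 4 per list. Others are said to be named after their values were seen. That holds also for ciarta and CYP26A1, which fell outside these rules. Replicates of a group differed beyond counting noise (chi-square per degree of freedom 13.9 to 111 over 26 pairs), so none was merged. Counting-error figures and the floor of 3 counts cover counting error only.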

Additional observations from a re-analysis of the deposited data

Results flagged for a closer look

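A library was singled out where its gap to the nearest library of its group, as a share of the group's range, exceeded Dixon's 95% value (0.829 for 4 libraries, 0.710 for 5). For the 37 named genes in 3 groups this was so in 29 of 111 sets of values, where chance would give about 5.55, or 1 in 20, for genes not picked by their spread. Most of these genes were picked by spread, within the depleted group and some of them within control or recovering libraries, so the count is not compared with chance. Of the 29, 17 lay in the depleted, 6 in the control and 6 in the recovering group.

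In depleted 5 the gap share was 0.944 for SLC5A12, 0.934 for CUBN, 0.857 for pdzk1ip1, 0.832 for CDH17, 0.873 for si:ch211-281l24.3 and 0.764 for ptgdsb.1. In the same library the clock genes had shares of 0.821 (PER1), 0.827 (NR1D2), 0.753 (ciartb) and 0.814 (PER3), and the immediate early genes 0.908 (CCN1), 0.882 (NR4A1) and 0.715 (FOS). The other depleted libraries that stood apart were depleted 4 for ahrrb (0.855) and c3b.2 (0.710), depleted 2 for ccl19a.1 (0.851) and depleted 1 for slc5a3b (0.748).

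In the other groups, DDC, ptgdsb.1, ptgdsb.2 and psmb13a had been named for their spread in control or recovering libraries, and their values restate that choice. Control 1 stood apart for DDC (0.954), pdzk1ip1 (0.844) and ccl38.6 (0.892), and recovering 1 for DDC (0.914) and pdzk1ip1 (0.712). Control 3 stood apart for ptgdsb.1 (0.992) and ptgdsb.2 (0.977), and recovering 4 for the same genes (0.853 and 0.910). APOB was low in control 4 (0.839), psmb13a high in recovering 3 (0.835) and ccl38.6, a chemokine gene, high in recovering 5 (0.755).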

How the results depend on the processing

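Counts of the 200 genes called between groups depended on scaling and on which libraries were fitted together. Between depleted and control testes, 47 became 12 with total-count scaling, 25 with only the 2 groups fitted, and 25 with libraries under 20000000 counts only. With a library left out the count was 25 to 64, with 26, 25 and 28 without control 3, 4 and 5. Over all genes, 14106 became 14156, 12453 and 12443 in the same order, and 12741 to 14923 with a library left out. Between recovering and depleted testes, 46 became 14, 24 and 18 under the same settings, and 29 to 62 with a library left out. Without recovering 2 and 3 the counts were 30 and 29. Over all genes, 12598 became 12129, 10352 and 9708, and 10717 to 13874 with a library left out. Between recovering and control testes, 0 became 3 with only these 2 groups fitted and stayed 0 with any library left out. Over all genes, 96 became 1254 and 0 to 556.

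The replicate block gave 44, 29 and 0 calls for depleted against control, recovering against depleted, and recovering against control testes, and 0 in the spread test. Over all genes it gave 13896, 12017, 9 and 2 calls in the same order. Deviations of same-numbered libraries had a mean correlation of 0.0245 (13 pairs, -0.159 to 0.241), beside -0.00609 for 52 differently numbered pairs, so the numbers were not treated as pairs.

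In the spread test, 0 became 1 with total-count scaling, 3 with all genes of at least 1 count, and 2 with libraries thinned to the smallest total (chosen after seeing the data). With a library left out the count was 0 to 6, the 6 without recovering 4. Over all genes, 13 became 17, 135 and 14 in the same order, and 0 to 220 with a library left out, the 220 without recovering 4.

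Of the 200 genes, 113 remained when the choice was made with TMM-scaled CPM, 121 with DESeq2 size factors, 96 with a depleted mean of at least 20 CPM, and 102 to 193 with a library left out, with 115 without depleted 4 and 102 without depleted 5. Their median SD/mean in controls was 0.230 after thinning and 0.197 to 0.214 with a control left out. In recovering libraries it was 0.265 to 0.295 with a library left out. All 74 alternative values for single genes stayed within their limits, as did 90 other values, while 31 did not. The single-gene limits were wide. The SD/mean of slc5a3b over depleted libraries fell from 0.584 to 0.462 with TMM and 0.440 with DESeq2 size factors. That of PPP2R5A fell from 0.597 to 0.537 and 0.530. These rescaled values are under 0.547, the last value taken on the scale of total counts. The depth of 8123444 counts in the smallest library limits genes near 10 CPM most, and spread over 4 or 5 libraries is estimated coarsely.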

Other observations

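Genes of cell surface and neuronal type, named after their values were seen, were also among the 200. The cadherin-family gene celsr1b stood between 9.63 and 234 CPM in controls, between 26.0 and 157 CPM in depleted libraries and between 12.01 and 204 CPM in recovering ones. Several genes were near the control level in depleted 1 to 4 and lowest in depleted 5: OTOF, a synaptic calcium sensor gene, was at 16.6 to 35.7 CPM in depleted 1 to 4 and 2.58 CPM in depleted 5, PDE6B, a phosphodiesterase gene, at 9.85 to 20.3 CPM and 0.398 CPM, and ANK1, an ankyrin gene known from erythrocytes, at 14.4 to 41.8 CPM and 1.69 CPM. The erythrocyte list (11 genes), of which ANK1 is no member, was highest in depleted 5 at 3118 CPM, against 978 to 2942 CPM in depleted 1 to 4. The depleted 5 library had the lowest spermatogonial and meiotic marker sums, 23.4 and 25.8 CPM, and their part in these values was not tested.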
